A study of Homo sapiens with 8 samples.

Results

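The mitochondrial ribosomal protein genes were taken as the protein-coding genes whose GENCODE symbol begins with MRPL or MRPS followed by a digit. There were 78 of them among the 69215 genes counted, of which 49 are named for the large subunit (MRPL) and 29 for the small subunit (MRPS). All 78 passed the filter on low counts and were among the 15931 genes tested. The RNA came from G401, a rhabdoid kidney tumor cell line without SMARCB1, which is a core subunit of the SWI/SNF chromatin remodelling complexes. A Tet-On transgene expressed SMARCB1, or GFP in the control line, when doxycycline (Dox) was added. Cells were kept for 12 h with Dox at 0.1 µg/ml or with DMSO alone, which gave 4 groups of 2 libraries, named SMARCB1 DMSO, SMARCB1 Dox, GFP DMSO and GFP Dox. All 4 groups lack the SMARCB1 of the tumor cells themselves, and the SMARCB1 and GFP cells are separately engineered lines that may differ for reasons other than the transgene. Cells of 6 plates were pooled for each condition, and nothing in the labels says that the replicates came from separate cultures, so p-values measure only the spread between these libraries.

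Mitochondria hold a ribosome of their own, which makes the few proteins encoded by mitochondrial DNA, all of them membrane subunits of the respiratory chain and of ATP synthase. Its RNAs come from the mitochondrial genome, whereas its proteins are encoded in the nucleus, made in the cytosol and imported. The small subunit binds and decodes the mRNA and the large subunit joins the amino acids. A part of the proteins descends from the bacterial ancestor of the organelle, and the rest is found only in mitochondria. By the present names of the proteins, 46 of the 78 members were counted as having a bacterial homologue and 31 as found only in mitochondria. MRPS36 is counted in neither set, since its product is known as a subunit of the oxoglutarate dehydrogenase complex. The symbols do not always give the place of a protein, and the products of MRPS30 and MRPS18A sit in the large subunit.

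Genes for mitochondrial proteins are known to share promoter motifs of the ETS, YY1 and NRF1 factors, and the windows of 5 members are printed here because the results below turn on these genes. Each runs 5′ to 3′ over 150 bases, from 125 before the start to 25 from it (RefSeq, GRCh38.p14). Capitals mark matches to the motifs ETS (CCGGAAG), YY1 (AANATGGCG, where N is any base), NRF1 and E-box (CACGTG), searched on both strands. The NRF1 motif is 10 bases long with an N inside it, and its match in MRPL57 is shown in capitals. MRPL3, MRPL42 and MRPL57 are the members called lower with Dox in the SMARCB1 line, and MRPS22 and MRPS30 are members called in opposite directions between the lines.
MRPL3, chr3:131502947-131503096, minus strand: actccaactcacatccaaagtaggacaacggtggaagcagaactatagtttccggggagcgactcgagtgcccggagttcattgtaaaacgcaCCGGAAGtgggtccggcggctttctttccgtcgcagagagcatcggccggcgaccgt
MRPL42, chr12:93467389-93467538, plus strand: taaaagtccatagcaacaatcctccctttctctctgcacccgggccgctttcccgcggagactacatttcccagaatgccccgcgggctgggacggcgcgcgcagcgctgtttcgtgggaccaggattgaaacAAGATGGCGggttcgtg
MRPL57, chr13:21176533-21176682, plus strand: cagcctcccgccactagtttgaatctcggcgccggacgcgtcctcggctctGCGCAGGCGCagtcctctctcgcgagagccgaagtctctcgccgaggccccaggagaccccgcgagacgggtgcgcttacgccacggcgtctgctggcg
MRPS22, chr3:139343869-139344018, plus strand: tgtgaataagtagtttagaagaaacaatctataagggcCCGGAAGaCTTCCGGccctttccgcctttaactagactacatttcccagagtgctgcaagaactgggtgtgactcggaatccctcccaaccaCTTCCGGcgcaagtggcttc
MRPS30, chr5:44808822-44808971, plus strand: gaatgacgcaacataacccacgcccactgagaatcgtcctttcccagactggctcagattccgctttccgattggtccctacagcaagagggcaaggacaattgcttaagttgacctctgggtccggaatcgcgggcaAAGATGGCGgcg

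The 3 members called lower with Dox had no motif in common. Counting the first transcribed base as 1, with no position 0, MRPL3 had an ETS match that starts at -32. MRPL42 had a YY1 match that starts at 9, and MRPL57 an NRF1 match that starts at -74. MRPS22 had a pair of ETS matches 1 base apart on opposite strands, at -87 and -79, and another that starts at 6. MRPS30 had a YY1 match that starts at 14, downstream of the start as in MRPL42.

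Windows from 250 bases before to 50 after the start were found by symbol for 69 of the 78 members. An ETS match was present in 30 of the 69 (43.5%), against 22.7% of 10065 protein-coding genes tested and 10.3% of all 35116 windows. A gene is counted once, with a match in any of its windows (85 for the 69 members). The 35116 are single windows, so their shares are not on the same footing as those per gene. A YY1 match was present in 18 members (26.1%), against 8.27% of the tested protein-coding genes and 3.19% of all windows. The shares of NRF1 (13.0% of members) and of the E-box (13.0%) lay beside 13.5% and 12.8% of the tested protein-coding genes, and beside 5.78% and 7.26% of all windows. ETS and YY1 matches could share bases by their letters, but in the 4 members that held both (MRPL38, MRPL52, MRPS10 and MRPS18A) they shared none. ETS matches were present in 42.9% of the large subunit genes and 44.4% of the small subunit genes, and YY1 matches in 26.2% and 25.9%. A match is a run of letters and not a bound site, and no binding was measured here.

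**Figure D1:**
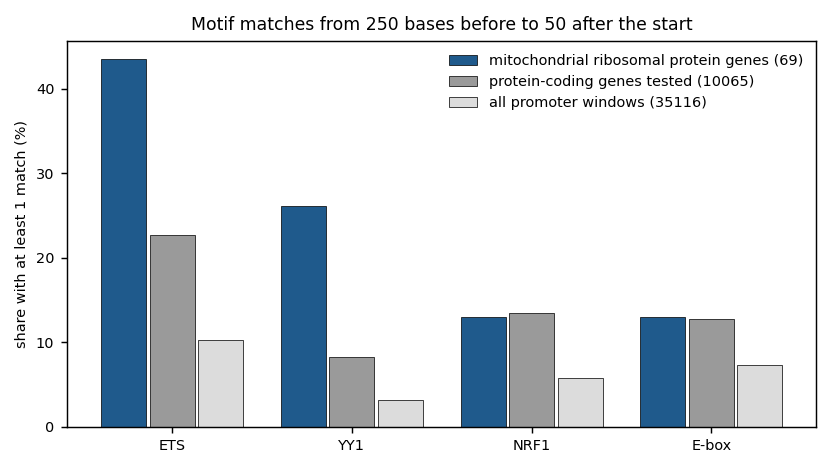
Share of genes or windows (%) with at least 1 match to each of 4 motifs from 250 bases before to 50 after the start, for 69 mitochondrial ribosomal protein genes, 10065 tested protein-coding genes and 35116 windows. ETS and YY1 matches stand higher among the members (43.5% and 26.1%), while NRF1 and E-box shares (both 13.0%) lie close to those of the tested protein-coding genes.

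The members were spread over 21 chromosomes, with at most 8 on any of them and none on a sex chromosome. Starts were taken here as the outermost annotated ends of genes, which need not be the starts in use. For MRPS22 this end lies at chr3:139005806, outside the window printed above. For 27 members (34.6%) another protein-coding gene started on the opposite strand within 1000 bases, against 18.3% of 12368 named protein-coding genes tested. In 1 case the neighbour was a member too, since the starts of MRPL46 and MRPS11 on chromosome 15 lie 63 bases apart. MRPL57 starts 106 bases from SKA3, and MRPL47 starts 41 bases from NDUFB5, a gene of respiratory complex I. Exons of 18 members overlapped another gene on the same strand, by over 20% of their length in 9, and a read in such a stretch is ambiguous for the counting mode used. The strand setting of the counting is not known, so for the 30 members with exons that overlap a gene of the other strand a part of the counts is uncertain. The 79 annotated pseudogenes of the members held 37 to 94 counts per library in all, against 85949 to 115568 for the members.

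The libraries were checked against their labels. The count of SMARCB1 was 10 and 21 for SMARCB1 DMSO, 30474 and 29383 for SMARCB1 Dox, and 0 in all 4 GFP libraries. VIM (678 to 1310 CPM), KRT8 (330 to 573 CPM) and KRT18 (212 to 420 CPM) were present in every library, given as CPM, gene counts divided by TMM-scaled library sizes. PTPRC and PECAM1, markers of blood and endothelial cells, had at most 2 and 3 counts. Counts assigned to genes ranged from 29632090 to 37597477 per library, and mitochondrially encoded genes took 18.9% to 27.9% of them, the most in SMARCB1 DMSO replicate 1.

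Levels of the members differed widely. Between genes they were compared as TPM, in which counts are divided by the length of all exons of a gene and scaled to the same total in each library. MRPL3, a homologue of bacterial L3 that reaches towards the catalytic center, was the highest with 112 ± 17.6 TPM (SD over the 8 libraries). It was followed by MRPL37 (96.8 TPM), MRPL11 (95.8 TPM), MRPL15 (94.4 TPM) and MRPL50 (82.8 TPM), so that the first 5 places were held by the large subunit. MRPL11 belongs to the base of the stalk that recruits translation factors, and MRPL15 has a bacterial homologue, whereas MRPL37 and MRPL50 are found only in mitochondria. The lowest were MRPL54 (2.47 TPM), MRPS36 (2.42 TPM), MRPS5 (1.86 TPM), MRPL38 (1.52 TPM) and MRPL46 (1.20 TPM).

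In all 77 pairs of neighbours in this order the ranges over the 8 libraries overlapped. The ranges span 4 groups and hold shifts that all genes of a library share, so this overlap does not test the order. The median was 23.2 TPM for the large subunit and 19.6 TPM for the small subunit, beside 151 TPM for cytosolic ribosomal protein genes. The order rested on the length used. With the length of the MANE Select transcript, a single reference transcript per gene and an alternative added after seeing the data, MRPS6 was first and MRPS27 moved from place 46 to 9, and 3 of the 5 highest and 3 of the 5 lowest genes were shared with the order above. The exons of MRPS27 span 19524 bases in all and 2770 in its MANE Select transcript. MRPL46 and MRPS5 left the 5 lowest, with 12.6 TPM each and places 72 and 73. Overlap with another gene of the same strand, where reads are ambiguous, took 41.1% of the exon bases of MRPL38, 23.3% for MRPS5 and 11.3% for MRPL46. For MRPL54 and MRPS36 it was 0.0%. Of the 12 members under 5 CPM, 10 had an exon GC content above the median of the members, and their median was 58.9% against 46.6% in the other 66.

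**Figure D2:**
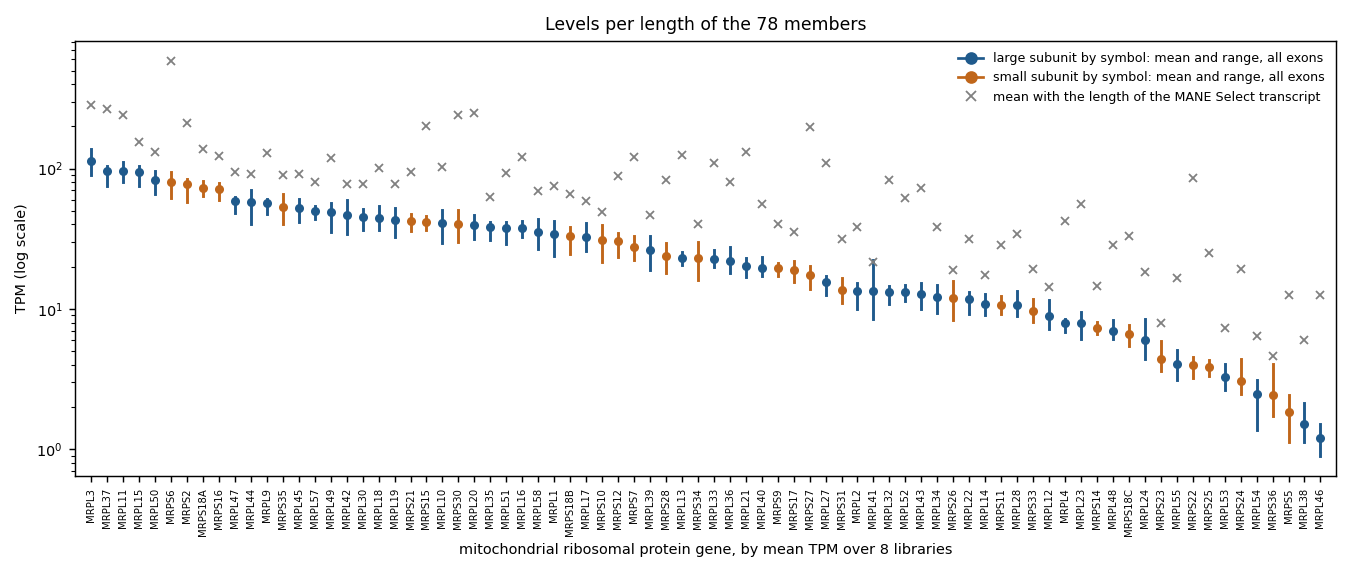
Level per length (TPM, log scale) of each of the 78 members, ordered by the mean over 8 libraries, with points at the mean, lines from the lowest to the highest library, and crosses at the mean with the MANE Select transcript length. With the length of all exons, levels fall from 112 TPM for MRPL3 to 1.20 TPM for MRPL46, and the large subunit holds the first 5 places. Crosses far above their points (MRPS27, MRPS22) mark genes whose place depends on the length.

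The balance of the subunits was compared by the summed CPM per kilobase of the large subunit over that of the small subunit. For SMARCB1 DMSO the ratio was 2.05 and 2.07, for SMARCB1 Dox 1.96 and 2.01, for GFP DMSO 2.05 and 2.03, and for GFP Dox 2.02 and 2.06. The SMARCB1 Dox libraries were the lowest and did not overlap the other groups. With 2 libraries against 2 an exact permutation test cannot go below p = 0.333, two-sided, so these ratios were not tested. The ratio itself depends on gene length, and with MANE Select lengths it lay between 1.50 and 1.56, where SMARCB1 Dox overlapped both GFP groups.

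The first comparison asked how 12 h of SMARCB1 re-expression changed these genes. In bulk RNA, fewer cells of a kind and less RNA per cell cannot be told apart. Of the 78 members, 3 fell and 0 rose with Dox in the SMARCB1 line (edgeR quasi-likelihood test, Benjamini-Hochberg adjusted p under 0.05 over all genes tested). This is 3.85% of the members, beside 14.0% of all 15931 genes tested and 17.3% of 10785 protein-coding genes in the same range of CPM. By direction, 8.33% of all genes were called higher and 5.69% lower. The 3 genes were MRPL3, MRPL42 and MRPL57, all of the large subunit, and 0 of the 29 small subunit genes were called. MRPL3 has a bacterial homologue, and the products of MRPL42 and MRPL57 are found only in mitochondria.

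MRPL3 had 129 and 132 CPM in SMARCB1 DMSO, 104 and 106 CPM in SMARCB1 Dox, 133 and 131 CPM in GFP DMSO and 140 and 129 CPM in GFP Dox. Both SMARCB1 Dox libraries were below all 6 others, which lay close together. The log2 fold change with Dox in the SMARCB1 line was -0.32 (SE 0.078, 95% interval -0.48 to -0.16, adjusted p = 0.00748), a level 0.802 of that in DMSO.

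MRPL42 had 294 and 303 CPM in SMARCB1 DMSO, 239 and 249 CPM in SMARCB1 Dox, 360 and 348 CPM in GFP DMSO and 366 and 340 CPM in GFP Dox. SMARCB1 Dox was again lowest, SMARCB1 DMSO stood between, and the GFP groups were highest and overlapped each other. The log2 fold change with Dox in the SMARCB1 line was -0.29 (SE 0.079, 95% interval -0.46 to -0.13, adjusted p = 0.0153).

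MRPL57 had 51.9 and 53.5 CPM in SMARCB1 DMSO, 44.4 and 39.9 CPM in SMARCB1 Dox, 48.2 and 43.6 CPM in GFP DMSO and 44.9 and 44.2 CPM in GFP Dox. Here SMARCB1 DMSO was the highest group, and SMARCB1 Dox overlapped both GFP groups. The log2 fold change with Dox was -0.32 (SE 0.088, 95% interval -0.51 to -0.14, adjusted p = 0.0160).

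These 3 calls were close to the threshold. Without SMARCB1 DMSO replicate 2 only MRPL3 was called. MRPL3 was not called without SMARCB1 Dox replicate 1, at a log2 fold change of -0.31 (adjusted p = 0.0526). MRPL42 was not called without SMARCB1 DMSO replicate 2 (-0.27, adjusted p = 0.0587), without SMARCB1 Dox replicate 1 (-0.26, adjusted p = 0.107), or in a fit of only the 4 libraries compared (-0.29, adjusted p = 0.0537). MRPL57 was not called without replicate 2 of SMARCB1 DMSO (-0.30, adjusted p = 0.0692) or of SMARCB1 Dox (-0.25, adjusted p = 0.136). With library totals in place of TMM, a scaling that moves the median of all genes from -0.004 to 0.088, 0 members were called and all 3 genes stayed lower, by 0.20 to 0.23 on the log2 scale.

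The other 75 members did not pass the test. The median log2 fold change was -0.022 over all members, -0.024 over the large subunit and -0.021 over the small subunit, beside -0.004 over all genes tested. With library totals these medians were above 0, at 0.069, 0.067 and 0.071, below the median of all genes at 0.088. The middle 50% of members lay between -0.12 and 0.08, a narrower span than the -0.18 to 0.19 of all genes. For the protein-coding genes in the same range of CPM it was -0.14 to 0.17, nearer to that of the members. The 95% interval lay within 1.5-fold in either direction for 68 of the 78 members, and the other 10 were all genes under 5 CPM, with wide intervals. It did so for 8818 of the 15931 genes tested and for 7964 of the 10785 protein-coding genes in the same CPM range. Both Dox libraries were above both DMSO libraries in 12 members and below in 17, beside 25.9% and 25.2% of all genes.

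An unadjusted p under 0.05 was reached by 5 members, beside 26.0% of all genes. Among them MRPS36 had the largest estimate, at low counts. It had 42 and 54 counts in SMARCB1 DMSO, 96 and 70 counts in SMARCB1 Dox, 47 and 47 counts in GFP DMSO and 35 and 38 counts in GFP Dox. The SMARCB1 Dox libraries were above the other 6. The log2 fold change with Dox in the SMARCB1 line was 0.61 (SE 0.27, 95% interval 0.04 to 1.17), which did not pass over all genes (adjusted p = 0.157). MRPL50, the other one not called, had a log2 fold change of -0.21 (SE 0.082, adjusted p = 0.0920). Under the replicate block MRPL50 was called (-0.21, adjusted p = 0.0306).

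**Figure D3:**
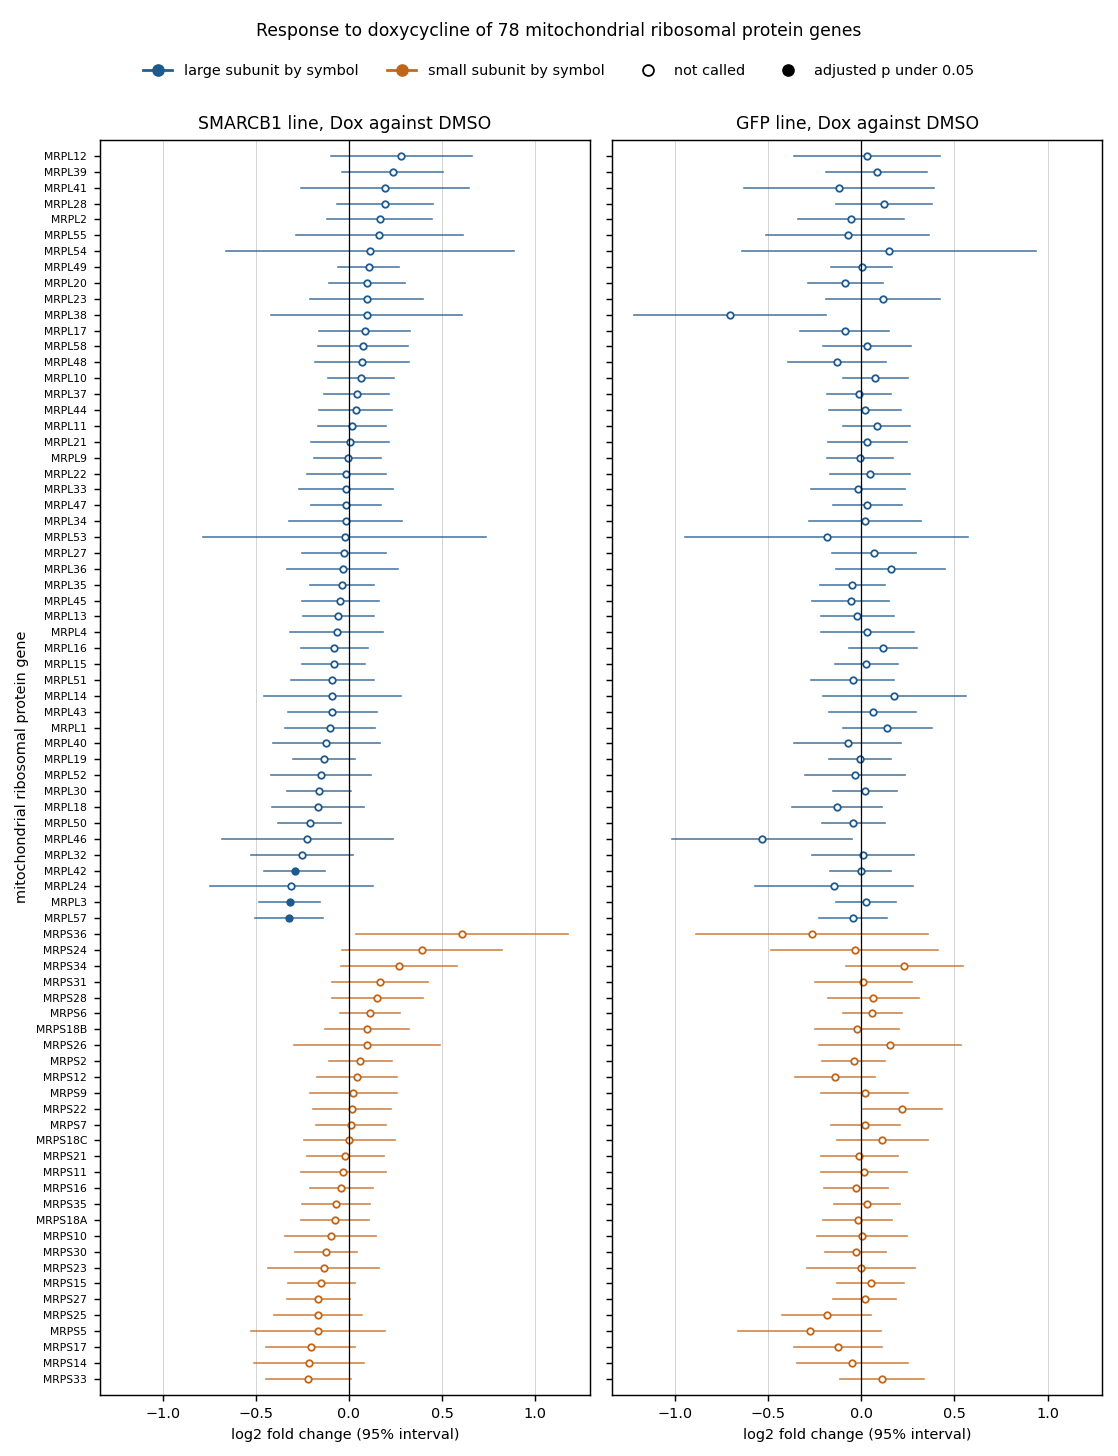
Log2 fold change of each of the 78 members with Dox against DMSO in the SMARCB1 line (left) and the GFP line (right), with 95% intervals, large subunit above and small subunit below, ordered by the value on the left; filled points are called. Only MRPL42, MRPL3 and MRPL57 are filled, all on the left and below 0, and the widest intervals belong to genes under 5 CPM such as MRPL53 and MRPL54.

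The symbols of 3 members, MRPS18A, MRPS18B and MRPS18C, refer to bacterial S18, and their products sit at different places of the ribosome. All 3 are homologues of bacterial S18. By the present names of the proteins only MRPS18C is counted here with the bacterial homologues, and MRPS18A and MRPS18B with those found only in mitochondria. For these genes the 2 sets therefore follow names and not descent. MRPS18A was present at 72.8 TPM, MRPS18B at 33.0 TPM and MRPS18C at 6.63 TPM. The log2 fold change with Dox in the SMARCB1 line was -0.08 for MRPS18A (95% interval -0.26 to 0.11), 0.10 for MRPS18B (-0.13 to 0.32) and 0.002 for MRPS18C (-0.24 to 0.25). Each of these intervals includes 0, and none of the genes was called in any of the 4 comparisons.

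All members together summed to 2949 and 3061 CPM in SMARCB1 DMSO, 2878 and 2816 CPM in SMARCB1 Dox, 3088 and 3011 CPM in GFP DMSO, and 3126 and 2991 CPM in GFP Dox. SMARCB1 Dox lay below the other groups without overlap. The mean difference to SMARCB1 DMSO was -158 CPM (-5.24%), of which -91.1 CPM came from MRPL3, MRPL42 and MRPL57, and over the other 75 members it was -2.64%. Library totals reverse this order of the means, with 2833 ± 224 CPM in SMARCB1 DMSO and 2861 ± 36.2 CPM in SMARCB1 Dox (SD, n = 2). The 31 members found only in mitochondria summed to 1288 ± 30.1 CPM in SMARCB1 DMSO and 1184 ± 8.39 CPM in SMARCB1 Dox (SD, n = 2), and the 46 with a bacterial homologue to 1715 ± 49.1 and 1661 ± 51.3 CPM, which overlap. Of these sets 2 of 31 (6.45%) and 1 of 46 genes (2.17%) were called, beside 14.0% of all genes tested. MRPL42, with a MANE Select transcript of 15557 bases, weighs most in the first sum, and as CPM per kilobase that set summed to 360 and 377 in SMARCB1 DMSO and to 361 and 355 in SMARCB1 Dox, which overlap.

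The Dox effects of the members in the SMARCB1 line went along with base composition, exon length and level. Between the log2 fold change in the SMARCB1 line and exon GC content Spearman's rho was 0.416 across the 78 genes and 0.252 across 15924 genes tested. With exon length rho was -0.344 across the members and 0.056 across the genes tested, and with mean CPM -0.307 and -0.035. In the GFP line rho across the members was 0.044 with GC content, -0.0546 with exon length and 0.0915 with mean CPM. For SMARCB1 DMSO against GFP DMSO rho across the members was -0.0355 with GC content, 0.0311 with exon length and -0.316 with mean CPM. The relation with level was thus not particular to Dox. Of the 39 members of lower GC content 28 had an estimate below 0 and 11 above, with a median of -0.070, and of the 39 of higher GC content 17 were below and 22 above, with a median of 0.017. Of the 3 called genes 2 were in the lower part. All genes share the same libraries, genes are not independent replicates, and the part of these properties in the result was not tested.

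Cells with GFP controlled for Dox itself and for making a protein from the transgene. With Dox, 0 of the 78 members were called, as were 0 of all genes tested (0.0%), and DESeq2 called 0 members too. An unadjusted p under 0.05 was reached by 3 members, beside 1.67% of all genes. Both Dox libraries were above both DMSO libraries in 12 members and below in 10, beside 13.6% and 13.2% of all genes. The median log2 fold change was 0.005 over the members and 0.005 over all genes. The 95% interval lay within 1.5-fold for 71 of the 78, beside 9500 of 10785 protein-coding genes in the same CPM range.

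The lowest unadjusted p in the GFP line belonged to MRPL38 and MRPL46, whose products both belong to the central protuberance of the large subunit. MRPL38 had 97 and 88 counts in GFP DMSO, 43 and 64 counts in GFP Dox, 61 and 66 counts in SMARCB1 DMSO and 72 and 82 counts in SMARCB1 Dox. As CPM, both GFP Dox libraries lay below the other 6. The log2 fold change was -0.70 (SE 0.25, unadjusted p = 0.00961, adjusted p = 1), at 41.1% of exon bases shared with another gene of the same strand. MRPL46 had a log2 fold change of -0.53 (SE 0.23, unadjusted p = 0.0331, adjusted p = 1) at 66 to 143 counts per library.

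The difference between the Dox effects of the lines was tested directly. It was called for 0 of the 78 members, beside 4.71% of all genes tested (3.07% higher and 1.64% lower) and 6.05% of the protein-coding genes in the same CPM range, and for 0 by DESeq2. An unadjusted p under 0.05 was reached by 6 members, beside 16.2% of all genes. MRPL3 came closest, with a difference of -0.34 (SE 0.11, 95% interval -0.57 to -0.12, adjusted p = 0.0831). Under the replicate block MRPL3 was called for this difference (-0.34, adjusted p = 0.0191), while DESeq2 gave an adjusted p of 0.0538. MRPL42 had -0.29 (adjusted p = 0.173) and MRPL57 -0.28 (adjusted p = 0.262). MRPS36 (0.87) and MRPL38 (0.80) had the largest estimates, with intervals that span 0.03 to 1.72 and 0.07 to 1.52. For 60 of the 78 members the interval of the difference lay within 1.5-fold, beside 6578 of 10785 protein-coding genes in the same CPM range.

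More members were called between the lines without Dox than with Dox in either line. In SMARCB1 DMSO against GFP DMSO, 11 of the 78 members were called (14.1%), beside 32.0% of all genes tested and 37.0% of the protein-coding genes in the same CPM range. Of these 8 were higher and 3 lower in the SMARCB1 line, beside 16.3% and 15.7% of all genes, and 17 members had an unadjusted p under 0.05, beside 40.9% of all genes. With library totals the split was 2 higher and 11 lower, and the medians of the members and of all genes moved from 0.083 and 0.015 to -0.033 and -0.10. Directions here therefore hold relative to the TMM scaling. Both SMARCB1 DMSO libraries were above both GFP DMSO libraries in 30 members and below in 19, beside 33.1% and 31.6% of all genes.

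MRPS30 (also PDCD9, a large subunit protein despite its name) had 93.7 and 90.4 CPM in SMARCB1 DMSO, 83.1 and 85.9 CPM in SMARCB1 Dox, 112 and 121 CPM in GFP DMSO and 112 and 117 CPM in GFP Dox. All 4 libraries of the SMARCB1 line were below all 4 of the GFP line. The log2 difference between the DMSO groups was -0.35 (SE 0.079, 95% interval -0.51 to -0.18, adjusted p = 0.00167), and MRPS30 was called lower under every alternative run. MRPL42, which also fell with Dox, was lower by 0.24 on the log2 scale (adjusted p = 0.0206), and MRPS35, a small subunit protein found only in mitochondria, by 0.23 (adjusted p = 0.0435). MRPL42 lost this call without SMARCB1 DMSO replicate 1 (adjusted p = 0.0883), GFP DMSO replicate 1 (adjusted p = 0.140) or GFP DMSO replicate 2 (adjusted p = 0.0693), and MRPS35 lost it without any 1 of the 4 libraries compared.

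MRPS5, a homologue of bacterial S5 that lines the path of the mRNA, had 16.9 and 11.7 CPM in SMARCB1 DMSO, 13.7 and 11.7 CPM in SMARCB1 Dox, 8.20 and 9.48 CPM in GFP DMSO and 5.81 and 8.72 CPM in GFP Dox. SMARCB1 DMSO replicate 1 was the highest library, and all 4 libraries of the SMARCB1 line were above all 4 of the GFP line. The log2 difference was 0.69 (SE 0.18, 95% interval 0.32 to 1.06, adjusted p = 0.00452). Without SMARCB1 DMSO replicate 1 it was 0.40 and was not called (adjusted p = 0.132).

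MRPS22, a small subunit protein found only in mitochondria, had 26.7 and 30.6 CPM in SMARCB1 DMSO, 29.2 and 28.7 CPM in SMARCB1 Dox, 21.6 and 24.6 CPM in GFP DMSO and 27.7 and 26.2 CPM in GFP Dox. GFP DMSO was the lowest group, and GFP Dox overlapped SMARCB1 DMSO. The log2 difference between the DMSO groups was 0.31 (SE 0.10, adjusted p = 0.0232), with 42.8% of exon bases shared with a gene of the other strand. The call was lost without SMARCB1 DMSO replicate 2 (0.21, adjusted p = 0.235), without GFP DMSO replicate 1 (0.22, adjusted p = 0.248) and with library totals (0.20, adjusted p = 0.189).

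MRPS25 (0.31), MRPL48 (0.33), MRPL13 (0.28) and MRPS15 (0.26) were the other members at 5 CPM or more that were called higher, with adjusted p from 0.0238 to 0.0480. Each lost its call without at least 2 of the 4 libraries compared, and with library totals, where the values were 0.19, 0.21, 0.17 and 0.15. Without SMARCB1 DMSO replicate 1 the value of MRPS25 was 0.16 (adjusted p = 0.405). DESeq2 called neither MRPS25 (adjusted p = 0.0706) nor MRPL48 (adjusted p = 0.0869), and MRPL48 was also not called with DESeq2 size factors (adjusted p = 0.0536), no filter (adjusted p = 0.114) or only the 4 libraries compared (adjusted p = 0.0643). MRPL13 and MRPS15 have bacterial homologues and MRPS25 and MRPL48 do not. MRPL41 (0.78, adjusted p = 0.0118) and MRPL14 (0.56, adjusted p = 0.0213) were called higher as well, but lie under 5 CPM, outside the rule for named genes, and are named here after their values were seen. MRPL41 had 111 and 140 counts in SMARCB1 DMSO against 91 and 77 counts in GFP DMSO. MRPL14, which sits where the subunits join, had 142 and 175 counts against 121 and 128.

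**Figure D4:**
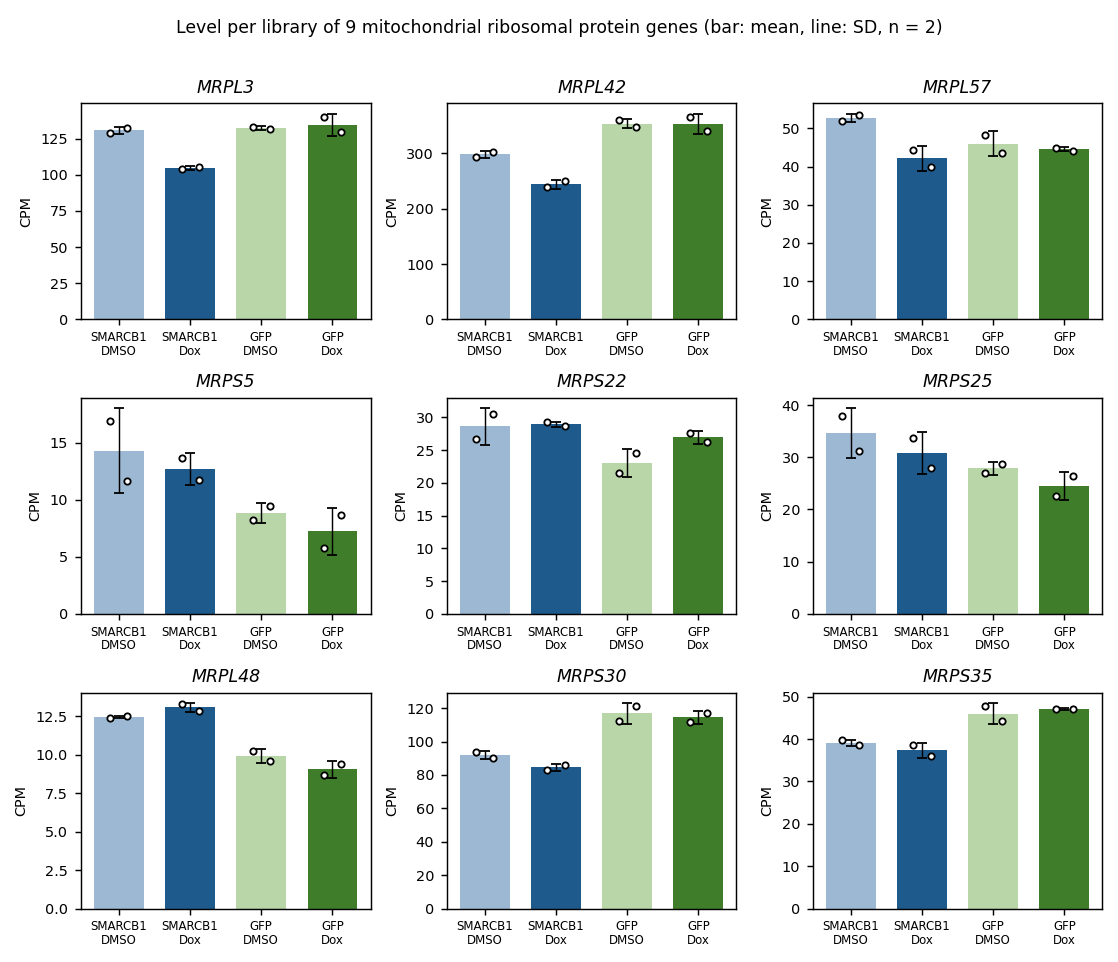
Level (CPM) in each library of MRPL3, MRPL42 and MRPL57, which fell with Dox in the SMARCB1 line, and of 6 members called between the lines in DMSO (MRPL42 is also called there); bars are means, lines the SD and points the 2 replicates of each group. MRPL3 is lower in SMARCB1 Dox than in all other groups, and MRPS30 and MRPS35 are lower in both groups of the SMARCB1 line than in the GFP line.

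Apart from MRPS30, the calls between the lines of members at 5 CPM or more depended on single libraries. Leaving out each library in turn gave 3 to 13 called members, with 6 without SMARCB1 DMSO replicate 1, 5 without SMARCB1 DMSO replicate 2, 4 without GFP DMSO replicate 1 and 3 without GFP DMSO replicate 2. The members found only in mitochondria held 7 of the 11 calls (4 higher and 3 lower, 22.6% of 31 genes). Those with a bacterial homologue held 4, all higher (8.7% of 46 genes). By symbol 5 of 49 large subunit (10.2%) and 6 of 29 small subunit genes (20.7%) were called. By the place of the protein it was 6 of 51 (11.8%) and 5 of 26 (19.2%). All these shares lie below the 32.0% of all genes tested and the 37.0% of protein-coding genes in the same CPM range. Of the 10 called members with a promoter window 5 held none of the 4 motifs. At least 1 of the motifs was present in 73.9% of the 69 members with a window and in 45.8% of 10065 tested protein-coding genes.

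**Figure D5:**
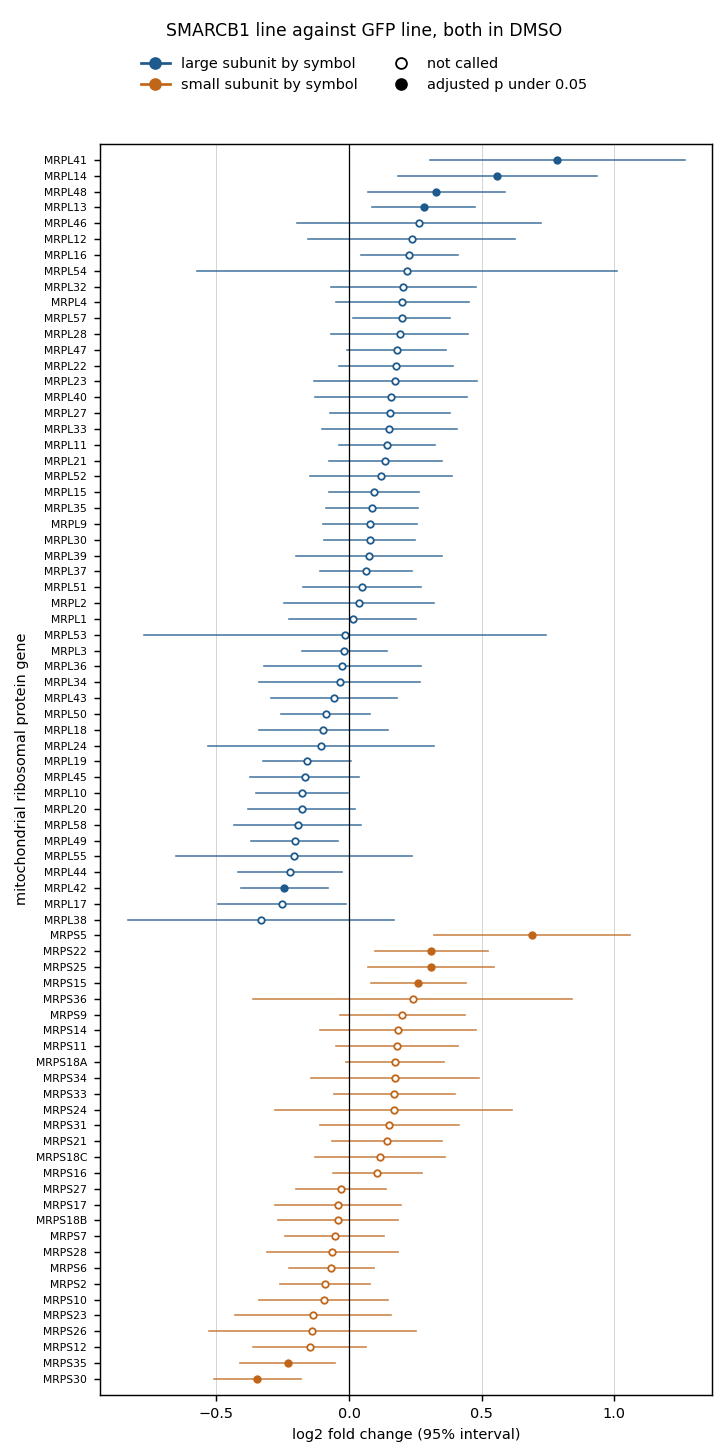
Log2 difference of each of the 78 members between SMARCB1 DMSO and GFP DMSO, with 95% intervals, large subunit above and small subunit below, ordered by value; filled points are called. The 8 filled points above 0 include MRPL41 (0.78) and MRPS5 (0.69), and the 3 below 0 are MRPL42, MRPS30 and MRPS35.

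Other parts of mitochondrial gene expression stood beside the members. Among 5 proteins of the mitochondrial ribosome with other symbols (DAP3, PTCD3, AURKAIP1, CHCHD1 and GADD45GIP1), 0 were called with Dox in the SMARCB1 line. GADD45GIP1 had 174 and 203 counts in SMARCB1 DMSO and 359 and 235 counts in SMARCB1 Dox, a log2 fold change of 0.47 (SE 0.17, adjusted p = 0.0762), and AURKAIP1 had 0.32 (SE 0.14, adjusted p = 0.131). Both values rested on SMARCB1 Dox replicate 1. Leaving out each library in turn gave 0.15 (without SMARCB1 Dox replicate 1) to 0.73 (without SMARCB1 Dox replicate 2) for GADD45GIP1, and 0.12 to 0.50 for AURKAIP1 without the same libraries. Both were called without SMARCB1 Dox replicate 2 (adjusted p = 0.00679 and 0.0277) and with library totals (adjusted p = 0.0212 and 0.0451), and GADD45GIP1 also with no filter (adjusted p = 0.0420) and with the replicate block (adjusted p = 0.0418). The other 3 lay between -0.12 and -0.03. AURKAIP1, a small subunit protein, was higher by 0.40 in SMARCB1 DMSO than in GFP DMSO (adjusted p = 0.0369), and not called with library totals (adjusted p = 0.148).

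Of 24 tested factors that assemble the ribosome 2 fell with Dox in the SMARCB1 line (8.33%). Of all genes tested 14.0% were called in this comparison, and 5.69% were called lower. MTERF3, needed to mature the large subunit, had 48.1 and 46.2 CPM in SMARCB1 DMSO, 34.0 and 29.1 CPM in SMARCB1 Dox, 40.8 and 41.9 CPM in GFP DMSO and 42.7 and 42.3 CPM in GFP Dox. SMARCB1 Dox was below all other libraries, and the log2 fold change was -0.58 (SE 0.091, adjusted p = 0.000133). MALSU1, which binds MRPL14 and keeps the subunits from joining too early, fell by 0.35 on the log2 scale (SE 0.087, adjusted p = 0.00820, and 0.0714 without SMARCB1 Dox replicate 2) and was higher by 0.54 in SMARCB1 DMSO than in GFP DMSO (adjusted p = 3.82e-05).

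The counts called in the lists that follow stand beside 14.0% of all genes tested (8.33% higher and 5.69% lower) with Dox in the SMARCB1 line. Of 19 mitochondrial translation factors 0 were called with Dox in that line. Of 9 transcription factors 1 (11.1%) rose, POLRMT, the polymerase of the mitochondrial genome (0.40, SE 0.10, adjusted p = 0.00881). Its call was lost without SMARCB1 DMSO replicate 1 (adjusted p = 0.104) or SMARCB1 Dox replicate 1 (adjusted p = 0.107). Of 13 mitochondrially encoded mRNAs, which these ribosomes translate, 6 fell, with a median log2 fold change of -0.32, with the lowest value in MT-ATP8 (-0.41, adjusted p = 0.00608, and 0.0745 without SMARCB1 Dox replicate 1). In the GFP line 12 of the 13 were also below 0 with Dox, with a median of -0.10 and 0 called. A difference between the Dox effects of the lines was called for 0 of the 13. With library totals MT-ND5, MT-CO2, MT-ND2 and MT-ATP6 were not called for Dox in the SMARCB1 line (adjusted p from 0.109 to 0.115). Nor were they in a fit of only the 4 libraries compared (adjusted p from 0.116 to 0.138). SMARCB1 DMSO replicate 1 had the highest mitochondrial share of all libraries. Without that library MT-ND5 (adjusted p = 0.247), MT-CO2 (adjusted p = 0.292), MT-ND2 (adjusted p = 0.193) and MT-ATP6 (adjusted p = 0.183) were not called. Of 85 cytosolic ribosomal protein genes 1 fell, RPL22 (-0.26, adjusted p = 0.0317), which was not called without SMARCB1 DMSO replicate 2 (adjusted p = 0.175), SMARCB1 Dox replicate 1 (adjusted p = 0.204) or any of the 4 GFP libraries (adjusted p from 0.0532 to 0.0543), nor with library totals (-0.16, adjusted p = 0.263), no filter (adjusted p = 0.0637) or only the 4 libraries compared (adjusted p = 0.0912).

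Cytosolic and mitochondrial ribosomal protein genes are set side by side here for the comparison of the lines. In SMARCB1 DMSO against GFP DMSO 43 of 85 cytosolic ribosomal protein genes were called higher and 1 lower, with a median log2 difference of 0.22. The mitochondrial set had 8 higher and 3 lower of 78 and a median of 0.083. Of all genes tested, 16.3% were called higher and 15.7% lower. These directions hold relative to the TMM scaling. As a share of all gene counts, the cytosolic set took 2.55% and 2.86% in SMARCB1 DMSO and 2.58% and 2.52% in GFP DMSO, which overlap. Of the mitochondrially encoded mRNAs 11 of 13 were called higher, with a median of 0.45. Of the assembly factors 3 were called higher and 4 lower of 24, and of the translation factors 2 higher and 2 lower of 19. These are counts and medians, and the difference between the sets was not tested.

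The counts of the ribosomal RNAs of the mitochondrion were few and varied widely between replicates. The 13 mitochondrially encoded mRNAs held 5599643 to 8972462 counts per library. How much of the ribosomal RNA the libraries kept is not known, so these counts are not read as its level in the cells. MT-RNR1, the RNA of the small subunit, had 198 and 100 counts in SMARCB1 DMSO, 534 and 103 counts in SMARCB1 Dox, 224 and 132 counts in GFP DMSO and 320 and 78 counts in GFP Dox. Replicate 1 was higher than replicate 2 in every group, and the groups overlapped. MT-RNR2, the RNA of the large subunit, had 253 to 1107 counts with the same order of replicates. Neither was called in any of the 4 comparisons of the main fit. With Dox in the SMARCB1 line both were called higher with no filter (adjusted p = 4.88e-06 for MT-RNR1 and 9.1e-06 for MT-RNR2). The replicate block also called both (adjusted p = 0.0234 and 0.0167), as did the block with a GC correction (adjusted p = 0.0355 and 0.0171). Leaving out each library in turn, this log2 fold change ran from -0.72 to 1.62 for MT-RNR1 and from -0.70 to 1.35 for MT-RNR2.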

How the data were processed

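Raw read counts per gene of 8 RNA libraries were used as deposited. The authors made these counts with STAR and HTSeq (exons, intersection-strict mode, GENCODE 42, hg38); versions and the strand option are not given in the sources used here. The labels and the study's methods name different library kits, so the library chemistry is uncertain. The 5 entries that name no gene (27.0% to 29.3% of reads) were left out. Symbols, exons and GC content came from GENCODE 44 (GRCh38).

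Counts were tested with edgeR 4.0.16 (R 4.3.3) using filterByExpr, TMM and a quasi-likelihood model in which the 4 groups shared 1 estimate of spread, with Benjamini-Hochberg adjustment over 15931 genes and calls at an adjusted p under 0.05. Standard errors are the absolute fold change over the root of F. DESeq2 1.42.0, other scalings, no filter, a replicate block, fewer libraries and each library left out were alternatives. The steps were tested on simulated data. Named members were those called at 5 CPM or more without overlap of groups, the extremes of level, and fixed genes. The members and lists were chosen with earlier results of these data known. Counting precision follows from the counts given. Ribosome profiling data were not analysed here.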

Additional observations from a re-analysis of the deposited data

Results flagged for a closer look

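MTERF3 was flagged because its Dox effect differed between the lines by a test of the difference itself. The log2 difference was -0.62 (SE 0.13, adjusted p = 0.00555 in edgeR's quasi-likelihood test), with effects of -0.58 (SMARCB1 line) and 0.04 (GFP line), and it was called under every alternative run, with adjusted p up to 0.0352.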

How the results depend on the processing

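With library totals in place of TMM, the Dox effect in the SMARCB1 line had 0 called members (3 with TMM), and the median log2 fold changes of all members, large and small subunit were 0.069, 0.067 and 0.071. The same scaling gave 0.041, 0.039 and 0.064 for the difference between the Dox effects, and -0.033, -0.037 and 0.0009 for SMARCB1 DMSO against GFP DMSO. The replicate numbers are shared by the groups, but no label says what they mark. Deviations of libraries with the same number correlated by 0.031 to 0.15 between groups, so the block is given only as an alternative. With the replicate block 4 members fell with Dox in the SMARCB1 line, 1 (MRPL3) had a called difference between the Dox effects, and 10 were higher and 6 lower between the lines. With the block and a GC correction 5 were called for Dox in the SMARCB1 line (2 higher and 3 lower) and 6 higher and 9 lower between the lines. DESeq2 gave 0 higher and 3 lower for Dox in the SMARCB1 line, and 5 higher and 4 lower between the lines. With MANE Select lengths the ratio of large to small subunit was 1.56 in SMARCB1 DMSO, 1.51 in SMARCB1 Dox, 1.51 in GFP DMSO and 1.50 in GFP Dox.

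Leaving out each library in turn gave 1 to 3 called members for Dox in the SMARCB1 line, with medians of -0.075 to 0.028 (large -0.079 to 0.027, small -0.071 to 0.041), and 3 to 13 between the lines, with medians of 0.013 to 0.14 (large -0.021 to 0.14, small 0.056 to 0.12). For the difference between the Dox effects 0 were called each time, with medians of -0.070 to 0.043 (large -0.079 to 0.0067, small -0.10 to 0.059). The cause of these shifts was not tested. No named gene that was called in the main fit changed direction under any of these alternatives. Each group had 2 libraries, and the 12 members under 5 CPM had a median SE of 0.22 on the log2 scale for Dox in the SMARCB1 line, against 0.11 in the other 66.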
